A study of Mus musculus with 2 samples.

Results

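Where Rfx6 bound around 10 receptor genes of the β cell was read from 1 ChIP-seq peak list. The genes were Glp1r, Gipr, Gcgr, Ffar1, Adra2a, Chrm3, Sstr2, Sstr3, Sstr5 and Galr1, which encode G-protein coupled receptors that tune insulin secretion. They are 10 of the 22367 protein-coding genes of GENCODE release M1 (mouse genome NCBIM37, called mm9). A gene was given every peak whose summit, the position of highest signal, lay in the gene or at most 50 kb from either end, which assigned 52 of the 23308 listed peaks. No peak was shared by 2 of the 10 genes. The cells were Min6b1, an insulin-secreting mouse β cell line, transiently transfected with the plasmid pCMV-Tag2A-3HA-Rfx6 and collected after a pair of days. The tagged protein came from a plasmid and was added to the Rfx6 the cells make themselves. The control was anti-HA ChIP (antibody 12CA5, also used for the tagged cells) of Min6b1 cells whose cell type label names no plasmid, although the same growth notes, transfection included, stand under both samples. There was 1 library per condition, so the values have no replicate error and no test between conditions was possible. The HA-Rfx6 library held 33949757 tags (mapped reads after removal of duplicates) and the control 3567375. Expression was not measured in this experiment, so the receptors' RNA and the markers of the line were not checked.

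Hormones, nutrients and nerves act on β cells through receptors of this kind. Glp1r and Gipr are the incretin receptors, which bind the gut hormones GLP-1 and GIP, and Gcgr binds glucagon. All 3 couple to the stimulatory G protein, raise cyclic AMP and amplify glucose-induced secretion. Ffar1 senses long-chain fatty acids and Chrm3 acetylcholine from the vagus nerve, and both act mainly through Gq and calcium release from stores. Adra2a (catecholamines), Sstr2, Sstr3 and Sstr5 (somatostatin) and Galr1 (galanin) couple to inhibitory G proteins and restrain secretion. Rfx proteins recognise the X-box, which is made of a pair of inverted arms, GTTGCC and GGCAAC in its most symmetric form, with a short spacer between them.

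Sequences close to this symmetric X-box stood near several of the summits. Those with at most 1 mismatch to the 2 arms are shown first because they are closest to this symmetric form. The search covered 100 bp on either side of each summit and allowed a spacer of 0 to 3 bases. The arms with their spacer are in capitals, the sequence is read on the strand of the receptor gene, and coordinates are those of NCBIM37/mm9. The first 3 have 0 mismatches and the other 3 have 1.
Chrm3, 38.1 kb downstream of the start (chr13:9840225-9840253, minus strand): tcacctgtGTTGCCAGGCAACtgttgctg
Sstr3, 1.07 kb beyond the gene end (chr15:78366343-78366371, minus strand): caggggcgGTTGCCAGGCAACggcccatg
Sstr5, 33.2 kb beyond the gene end (chr17:25593689-25593717, minus strand): gcatggctGTTGCCTGGCAACcccctgcc
Glp1r, intron 12 (chr17:31070059-31070088, plus strand): tacccaggGTTGCCATGGCAATgccaggta
Gipr, 10.5 kb upstream, at the start of Eml2 (chr7:19761949-19761978, minus strand): tgcctcccGTTGCCATAGCAACgcccttcg
Gcgr, 10.8 kb beyond the gene end, at the start of Fam195b (chr11:120411146-120411174, plus strand): agggagggGTTGCCGGGCATCtctgaaca

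A further 8 peaks had a closest X-box with 2 mismatches. Of these, 5 are shown, since they lay in a receptor gene or nearest to the start of one.
Gipr, intron 1 (chr7:19750604-19750633, minus strand): ccaccttgGCTGCCTCAGCAACacttagga
Chrm3, 12.9 kb upstream (chr13:9891221-9891249, minus strand): tggcttgaGTTACCTAGCAACctccccaa
Sstr2, 18.6 kb upstream (chr11:113462019-113462047, plus strand): agccggctGCTGCCTGGCAATgctgctgt
Sstr5, 4.35 kb upstream (chr17:25638497-25638526, minus strand): actgtcctGTTGCCATGGCTCCaggcagct
Sstr5, 1.25 kb beyond the gene end (chr17:25625531-25625559, minus strand): tgagtaaaGATGCCAGGCTACcactggtc

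Each of the 10 genes had at least 1 peak. Over all protein-coding genes, 67.8% had a summit at this distance, and 56.7% of the genes under 10 kb long had one, a size class that holds 8 of the 10 receptor genes. The genes were chosen with results of these data known, so their counts are set beside these shares as a description. Sstr5 had 14 peaks, Sstr3 had 7, Glp1r and Gcgr had 6 each, Gipr had 5 and Sstr2 had 4. Ffar1, Adra2a and Chrm3 had 3 each and Galr1 had 1. Thus 5 of the 10 had 5 peaks or more, as did 18.5% of all protein-coding genes, whose median was 1. The 14 peaks of Sstr5 were a number that 0.787% of genes reached or exceeded. Among the 4723 genes with, like Sstr5, a single other protein-coding start within 50 kb, 0.91% had 14 or more.

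**Figure D1:**
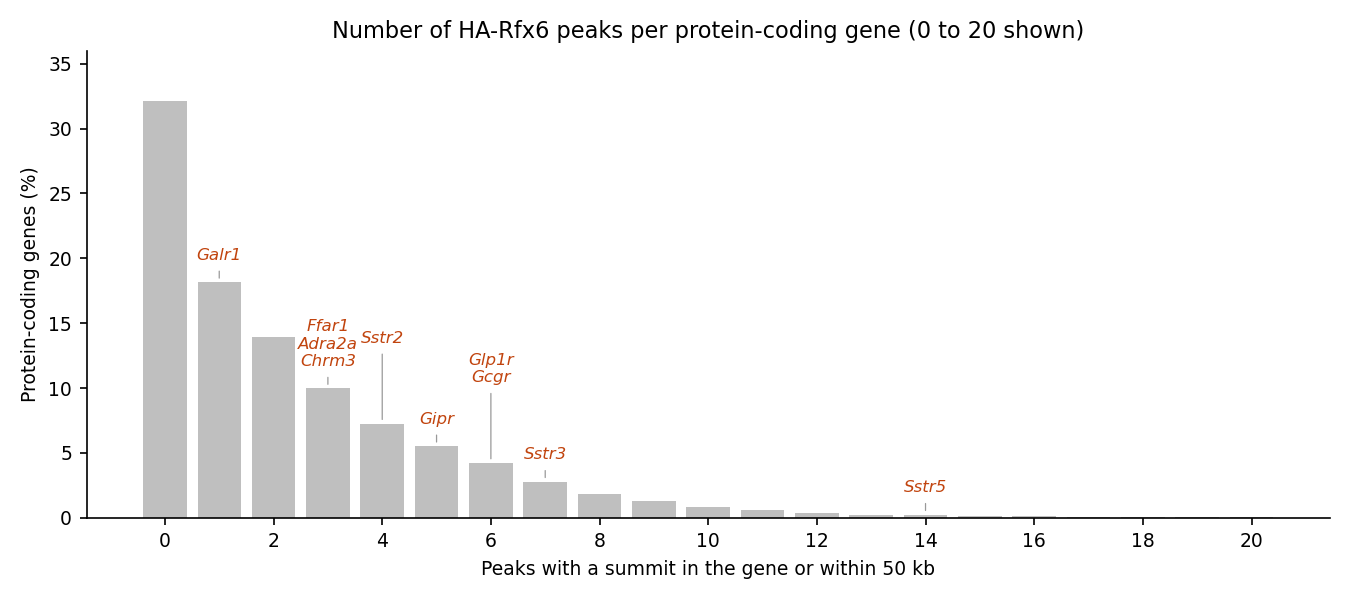
Number of HA-Rfx6 peaks in or within 50 kb of a gene (x axis) against the share of the 22367 protein-coding genes with that number (y axis, %), with the 10 receptor genes written above their bars. Genes without a peak form the first bar, where none of the 10 falls, and Sstr5 is the only one of the 10 at 14 peaks.

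Near the transcription start the receptors separated into those with and those without a summit. A summit lay within 1 kb of the annotated start for 6 of the 10 genes (Glp1r, Gipr, Ffar1, Adra2a, Sstr2 and Sstr3), whereas 20.1% of all protein-coding genes had one there. Among the 8 receptor genes under 10 kb, 5 had such a summit, beside 13.0% of all genes of that size. For Gcgr, Chrm3, Sstr5 and Galr1 the nearest summit was 9.0, 12.9, 4.35 and 8.97 kb from the start. Within 10 kb of the start, 9 of the 10 had a summit, all but Chrm3, against 35.7% of all genes. The annotated starts of Chrm3 and Ffar1 belong to models of 1 exon, which is 90.7% and 99.7% coding. A start further upstream would not be counted for them. A summit fell inside the gene for 5 of the 10, beside 31.3% overall. All 10 also had at least 1 peak for which their own start was the nearest protein-coding start, as did 44.2% of genes.

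**Figure D2:**
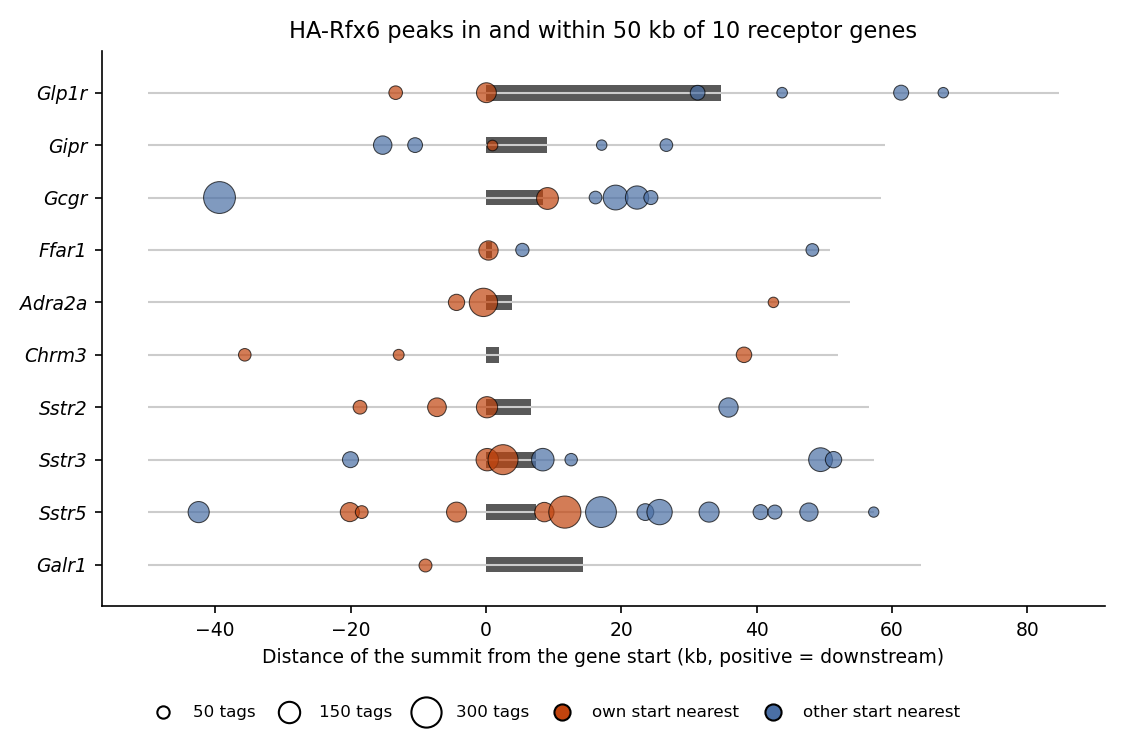
Position of each of the 52 summits relative to the start of its receptor gene (x axis, kb, positive values downstream), with 1 line per gene. Dark bars are the genes, circle area is proportional to the tags of the peak, and colour tells whether the receptor's own start or that of another protein-coding gene was nearest. For 6 genes there is a circle at or next to 0, and the largest circles of Sstr5 lie to the right of the gene.

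The strength of a peak is given as its tags, the reads of the tagged library counted in it, and as its fold enrichment over the local background that MACS expected from the control. The 52 peaks held 35 to 340 tags with a median of 87.5, and all 23308 peaks had a median of 73. Their fold enrichments ran from 3.77 to 37.2 with a median of 9.65, against 8.54 over all peaks. Of the 52, 8 (15.4%, 95% Wilson interval 8.01 to 27.5%) were among the tenth of all peaks with the most tags. This interval treats the peaks as independent, although 14 of them lie at Sstr5. Ordered by the highest peak of each gene, Sstr5 came first with 340 tags (95% exact Poisson interval 305 to 378), then Gcgr with 334 (299 to 372), Sstr3 with 296 (263 to 332) and Adra2a with 264 (233 to 298). These 4 do not separate from their neighbours in the order beyond counting error. After a gap, which no interval bridges, followed Sstr2 with 148 (125 to 174), Glp1r with 130 (109 to 154), Ffar1 with 123 (102 to 147) and Gipr with 112 (92.2 to 135). Each of these intervals overlaps that of its neighbour, and that of Gipr also overlaps that of Chrm3. Chrm3 with 79 (62.5 to 98.5) and Galr1 with 55 (41.4 to 71.6) were lowest, and their intervals overlap each other. The intervals cover counting error only. The gap is one of tags. By the fold enrichment of these same peaks, Sstr5 (32.95), Adra2a (27.54) and Sstr3 (27.31) were also highest. Gcgr (15.82) was below Gipr (21.11) and close to Sstr2 (15.54). The highest peaks of Gcgr and Gipr were nearest to starts of other genes, Slc25a10 and Eml2. Highest peaks of at least 340 tags were found at 4.19% of protein-coding genes, and of at least 55 tags at 59.2%. The deposited FDR of the highest peak was 9.24% for Sstr5, 6.3% for Adra2a, 5.73% for Gcgr and 5.62% for Sstr3. Of all peaks, 95.1% had an FDR of at most 5%.

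**Figure D3:**
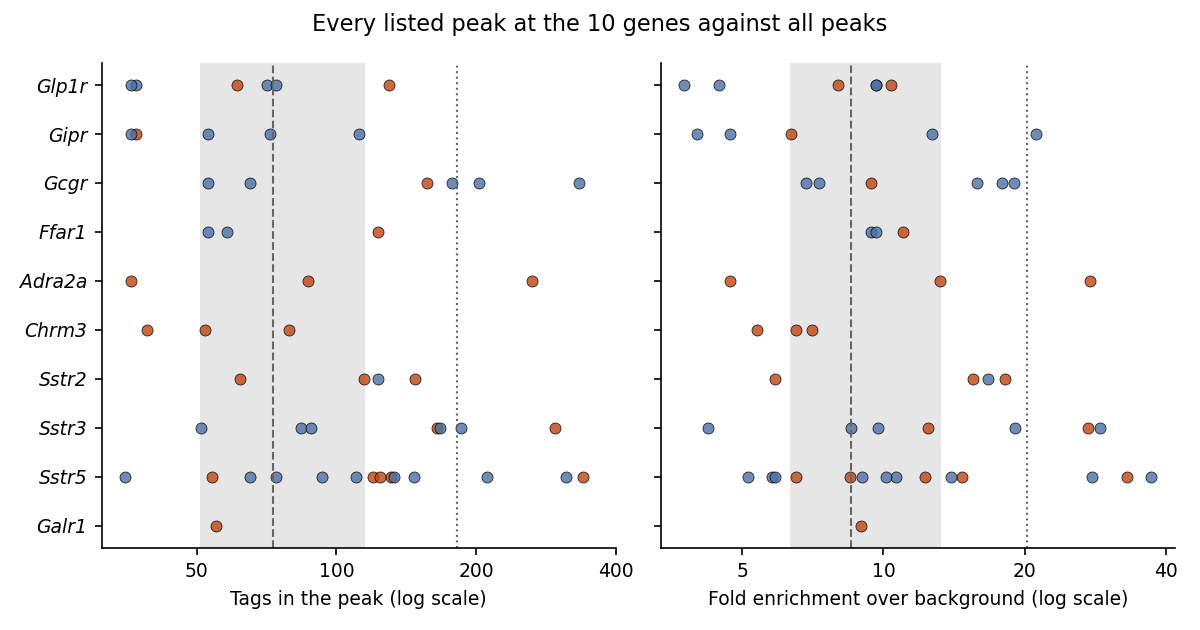
Tags (left, log scale) and fold enrichment (right, log scale) of every peak at the 10 genes, 1 point per peak, coloured by whether the receptor's own start (orange) or another protein-coding start (blue) was nearest. The grey band spans the middle 50% of all 23308 peaks, the dashed line is their median (73 tags, 8.54-fold) and the dotted line their 90th percentile (182 tags, 20.2-fold). Only Sstr3, Sstr5, Gcgr and Adra2a have points to the right of the dotted line for tags.

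Among the receptors that raise cyclic AMP, Glp1r had its strongest peak on its start. The gene (ENSMUSG00000024027.6, plus strand, chr17:31038785-31073455) had 6 peaks, with 61, 130, 71, 37, 74 and 36 tags from the most upstream to the most downstream. The peak of 130 tags had its summit 73 bp after the annotated start, in a coding exon, and a fold enrichment of 10.36. Of all peaks, 20.1% held at least as many tags. The only other summit inside the gene was in intron 12, 31.3 kb from the start, with 71 tags and a fold enrichment of 9.65. This is the peak with the 1-mismatch X-box shown above, and the middle of that X-box was 7 bp from the summit. At the start peak, by contrast, the closest match had 4 mismatches, a degree of likeness that 75.6% of windows 1 kb away from summits also reach. The 3 peaks beyond the gene, with 37, 74 and 36 tags, were nearest to the start of the neighbouring gene Umodl1, as was the peak in intron 12.

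Gipr had a weak peak of its own and stronger ones at a neighbour. The gene (ENSMUSG00000030406.6, minus strand, chr7:19742474-19751476) had 5 peaks with 112, 72, 37, 36 and 53 tags. Of these, only the peak of 37 tags was nearest to the Gipr start. Its summit was in intron 1, 861 bp after the start, with a fold enrichment of 6.36, and 96.9% of all peaks held at least as many tags. Even so, an X-box with 2 mismatches lay 3 bp from this summit. The peaks of 112 and 72 tags lay 15.3 and 10.5 kb upstream, at 176 and 171 bp from starts of Eml2, which encodes a microtubule-associated protein. The latter carries the X-box with 1 mismatch shown above. The remaining 2 were downstream, 1 of them in a coding exon of Qpctl, 174 bp from its start.

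Gcgr, the glucagon receptor gene, was flanked by strong peaks but had no summit in it or at its start. The gene (ENSMUSG00000025127.8, plus strand, chr11:120392013-120400402) had 6 peaks with 334, 157, 53, 203, 178 and 65 tags. The only one nearest to a Gcgr start was that of 157 tags, 610 bp beyond the 3′ end of the gene and 5028 bp from the start of the transcript Gcgr-201, which begins further downstream, with a fold enrichment of 9.42. The peak of 334 tags was 39.4 kb upstream of Gcgr and 507 bp before the start of Slc25a10, a mitochondrial dicarboxylate carrier gene. The peak of 203 tags was 135 bp before the start of Fam195b and holds the 1-mismatch X-box, 16 bp from its summit. Ranked by fold enrichment, a peak of 178 tags came first with 18.99, 1895 bp before the start of Dysfip1. Gcgr has 6 other protein-coding starts within 50 kb, and 18.4% of the 935 genes with as many neighbours had 6 or more peaks.

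Of the receptors that act through Gq, Ffar1 had a peak on the gene. Ffar1 (ENSMUSG00000044453.3, minus strand, chr7:31645587-31646489) is annotated as 1 exon of 903 bp that is almost wholly coding, so the distance counts from the start codon. Its 3 peaks held 123, 58 and 53 tags. The first had its summit in the coding exon, 317 bp after the start, with a fold enrichment of 11.0. The others lay at the neighbouring fatty acid receptor genes, that of 58 tags in intron 1 of Ffar3, 91 bp from its start, and that of 53 tags 7896 bp from the start of Ffar2. None of the 3 had an X-box with fewer than 3 mismatches or an intact arm (GTTGCC or GTTACC on either strand).

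Chrm3 had 3 peaks of few tags, 1 of which held an X-box with 0 mismatches. The gene (ENSMUSG00000046159.8, minus strand, chr13:9876381-9878329) is annotated as 1 exon, of which 90.7% is coding, so upstream exons that this model lacks are not counted. Its 3 peaks had 52, 39 and 79 tags and fold enrichments of 5.39, 7.06 and 6.51. All were intergenic and nearest to Chrm3, which has 0 other protein-coding starts within 50 kb. The peak of 79 tags, 38.1 kb downstream of the start, contained an X-box with 0 mismatches, 41 bp from the summit, and the peak of 39 tags, 12.9 kb upstream, contained 1 with 2 mismatches, 16 bp from the summit. Both matched the strict X-box, a pattern of paired arms that allows some variation in each. An intact arm was present in all 3 peaks.

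Of the inhibitory receptors, Adra2a had the strongest peak at a start. The gene (ENSMUSG00000033717.5, plus strand, chr19:54119672-54123472) had 3 peaks with 87, 264 and 36 tags, and its own start was nearest to each. The peak of 264 tags had its summit 367 bp before the start, and a fold enrichment of 27.54. Of all peaks, 3.80% held at least as many tags. Among all protein-coding genes, 1.03% had a peak of 264 tags or more within 1 kb of the start. The peak of 87 tags lay 4.35 kb upstream with a fold enrichment of 13.18. The sequence within 50 bases of the summit of the peak of 264 tags is shown because that peak held most tags of those at a receptor start, and the capitals mark the closest match to the X-box, which has 4 mismatches and so is no closer than most windows away from summits.
Adra2a, 367 bp upstream of the start (chr19:54119255-54119355, plus strand): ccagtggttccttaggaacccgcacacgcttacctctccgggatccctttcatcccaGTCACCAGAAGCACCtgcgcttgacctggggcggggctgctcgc

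Sstr2 was bound at its start and upstream of it. The gene (ENSMUSG00000047904.5, plus strand, chr11:113480656-113487319) had 4 peaks, with 62, 115, 148 and 123 tags. That of 148 tags was at the start, 158 bp into the gene and 24 bp from the start of transcript Sstr2-001, in an untranslated exon, with a fold enrichment of 15.54. The peak of 115 tags, 7.23 kb upstream, was higher by fold enrichment (18.13), and this one and the peak of 62 tags lay in intron 1 of Slc39a11, a zinc transporter gene, but were nearest to the Sstr2 start. The last was in a coding exon of Cog1. The X-box with 2 mismatches in the peak of 62 tags was 18 bp from the summit.

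Sstr3 had the peak with most tags inside any of the 10 genes. The gene (ENSMUSG00000044933.2, minus strand, chr15:78367445-78374775) had 7 peaks, with 84, 165, 296, 167, 51, 186 and 88 tags from upstream to downstream. The peak of 165 tags was in an untranslated exon, 195 bp after the start, and that of 296 tags in intron 2, 2.53 kb after the start, with a fold enrichment of 27.31. Only 2.62% of all peaks held at least as many tags as the latter. Another peak, of 167 tags and a fold enrichment of 19.07, lay 1.07 kb beyond the gene end. It holds the X-box with 0 mismatches, 14 bp from the summit, and is nearest to the start of C1qtnf6, 6316 bp away. The 3 peaks thus followed each other within 8.40 kb of the Sstr3 start. By fold enrichment the first of the 7 was at another gene, in intron 1 of Il2rb, 162 bp from its start, with 186 tags and a value of 28.95. The windows of the peaks in intron 2 and beyond the gene end are shown for comparison, with the closest match in capitals, which has 3 mismatches in the former and 0 in the latter.
Sstr3, intron 2 (chr15:78372198-78372298, minus strand): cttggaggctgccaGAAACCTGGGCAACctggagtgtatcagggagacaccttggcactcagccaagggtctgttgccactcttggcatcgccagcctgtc
Sstr3, beyond the gene end (chr15:78366321-78366421, minus strand): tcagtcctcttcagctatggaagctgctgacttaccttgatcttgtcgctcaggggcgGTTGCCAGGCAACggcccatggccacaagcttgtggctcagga

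Sstr5, the somatostatin receptor gene with most peaks, had no listed summit at its start. The gene (ENSMUSG00000050824.4, minus strand, chr17:25626820-25634198) had 4 peaks upstream, 0 inside and 10 downstream. Those upstream held 147, 120, 54 and 131 tags, and the last of them was the nearest to the start, at 4.35 kb, with a fold enrichment of 14.67. Those downstream held 124, 340, 313, 93, 211, 133, 74, 65, 110 and 35 tags. The peak of 340 tags, 4.28 kb beyond the gene end and 11.7 kb from its start, was nearest to Sstr5, and its fold enrichment was 32.95. MACS gave it an FDR of 9.24%, the highest of the 52 peaks, whose FDR ran from 1.75%. The next, with 313 tags, was 17.0 kb from the Sstr5 start and nearer to that of Tekt4, a tektin gene, at 8.66 kb. Another, with 211 tags, had the highest fold enrichment of the 52 peaks, 37.19, and its summit was 6 bp from the Tekt4 start. The peak of 74 tags holds the X-box with 0 mismatches, 87 bp from its summit. In all, 5 of the 14 were nearest to Sstr5, and the rest to Tekt4, Cacna1h or Sox8. Cacna1h encodes the pore of a T-type calcium channel. With 1950 tags in its 14 peaks, Sstr5 had a sum that 0.51% of protein-coding genes reached. The window of the peak of 340 tags is shown because it is the highest at any of these genes, and its closest match has 3 mismatches, all of them in the second arm.
Sstr5, 4.28 kb beyond the gene end (chr17:25622487-25622587, minus strand): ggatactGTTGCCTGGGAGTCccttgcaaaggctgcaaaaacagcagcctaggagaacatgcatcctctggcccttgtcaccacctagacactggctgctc

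Galr1, the galanin receptor gene on chromosome 18 (ENSMUSG00000024553.7, 14.3 kb long), had the fewest peaks and tags of the 10. Its 1 peak lay 8.97 kb upstream, with 55 tags and a fold enrichment of 8.94, and 69.7% of all peaks held at least as many tags. The next summit was just outside the limit, 50.4 kb from the gene, with 32 tags. Similar near misses occurred at Sstr2 (50.5 kb, 80 tags) and Sstr3 (50.9 kb, 106 tags), and just inside the limit was a peak of Sstr5 at 49.9 kb with 35 tags.

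Most of the 52 summits were outside the receptors themselves. In a receptor gene lay 7 (13.5%), upstream 16 and downstream 29. Of those outside, 15 were inside another protein-coding gene and 30 of the 52 (57.7%) were intergenic, while 40.3% of all peaks were intergenic. For 30 summits the nearest protein-coding start was not that of the receptor, and 9 of these were within 1 kb of that other start. The 22 peaks nearest to a receptor start held 36 to 340 tags with a median of 118, and the 30 nearest to another start held 35 to 334 with a median of 79. The 6 peaks within 1 kb of a receptor start held 37, 123, 130, 148, 165 and 264 tags, with a median of 139, and the 4902 peaks within 1 kb of any protein-coding start had a median of 82. Guanine and cytosine made up 56.7 to 72.6% of the bases around these 6 summits, and the median over all peaks at starts was 64.7%.

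X-box sequences were as follows over the 52 peaks. A closest match with 0 mismatches was present in 3 peaks (5.77%), beside 0.875% of all peaks and 0.00858% of windows 1 kb to the right of the summits. With at most 1 mismatch there were 6 (11.5%), beside 5.61% and 0.167%, and with at most 2 there were 14 (26.9%), beside 19.8% and 2.17%. At 3 mismatches the windows away from summits also reached 20.3%. The strict X-box was present in 5 of the 52 (9.62%, 95% Wilson interval 4.18 to 20.6%) and in 6.44% of all peaks. The Glp1r and Gcgr peaks with 1 mismatch did not match it, while the Chrm3 peak of 39 tags, with 2 mismatches, did. An intact arm (GTTGCC or GTTACC, either strand) was present in 22 (42.3%, 29.9 to 55.8%), in 35.8% of all peaks and in 10.7% of the shifted windows. Both intervals treat the 52 peaks as independent draws, although 14 of them lie at Sstr5. They are thus no test of a difference from all peaks, in either direction. For matches with at most 2 mismatches, the middle was within 50 bp of the summit in 13 of the 14 peaks, and in 78.2% of the 4615 such peaks in all. The 6 peaks at receptor starts held 0 strict X-boxes, and at starts in general 5.75% did. X-boxes with 0 mismatches were in peaks of 79, 167 and 74 tags, and those with 1 in peaks of 71, 72 and 203, while the 4 highest peaks of the 52 had 3 or 4.

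**Figure D4:**
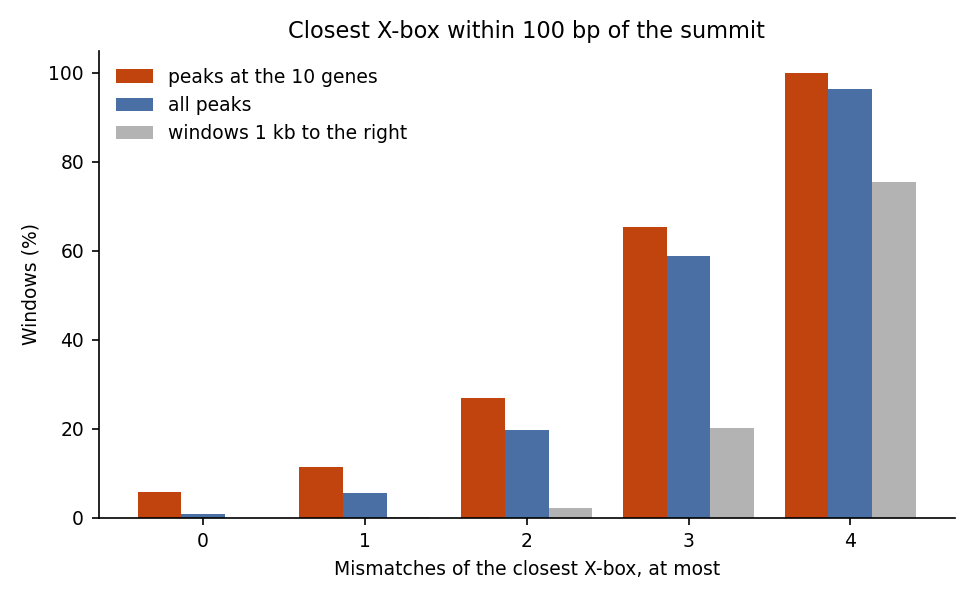
Share of windows (y axis, %) whose closest X-box has at most the number of mismatches on the x axis, for the 52 peaks at the receptor genes, all 23308 peaks and windows 1 kb to the right of all summits. From 0 to 2 mismatches the shifted windows stay at or below 2.17%, while at 4 mismatches they reach 75.6%.

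Other genes of the same signalling route were looked up in the same way, from a list of 52 symbols of which 51 were in the annotation. Of these, 43 (84.3%) had a summit within 50 kb and 15 (29.4%) had one within 1 kb of the start, beside 67.8% and 20.1% of all protein-coding genes. The peak of 123 tags on Ffar1 also counts for its neighbours Ffar2 and Ffar3 in this list. Related receptors had a peak in 17 of 19 cases, and the highest were at O3far1, which encodes another fatty acid receptor (399 tags, 35.0 kb from its start and nearest to Pde6c), and at the muscarinic receptor gene Chrm4 (341 tags, in an intron of Dgkz). Other islet receptors had one in 10 of 11 cases. Within 1 kb of the start the counts were 7 of 11 for other islet receptors, 5 of 19 for related receptors, 2 of 9 for kinases, arrestins and RGS proteins, 1 of 8 for G protein alpha subunits and 0 of 4 for ligands. The highest peaks of the other islet receptors were at the adenosine receptor gene Adora1 (392 tags, 650 bp from the start) and near the ghrelin receptor gene Ghsr (272 tags, at Tnfsf10). Among the ligand genes, Gip had 152 tags 3.81 kb upstream and Gal had 94 tags in a coding exon of Mtl5, while Gcg and Sst had 0 peaks. G protein alpha subunit genes had a peak in 7 of 8 cases, led by Gnao1 (306 tags, intron 2) and Gnaz (279 tags, 16.7 kb upstream). Among the receptor kinases, arrestins and RGS proteins, which switch the signal off, 7 of 9 had one, led by Grk5 (293 tags, 20 bp from the start) and Grk6 (292 tags, in an intron of Prr7). Arrb2, Rgs2, Gnai1, Chrm2, Sstr4 and Npy1r had 0 peaks in this window. The list holds only regions that passed the p-value cutoff of 1e-05, and its weakest peak held 24 tags, so weaker binding was not detectable at this depth.

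**Figure D5:**
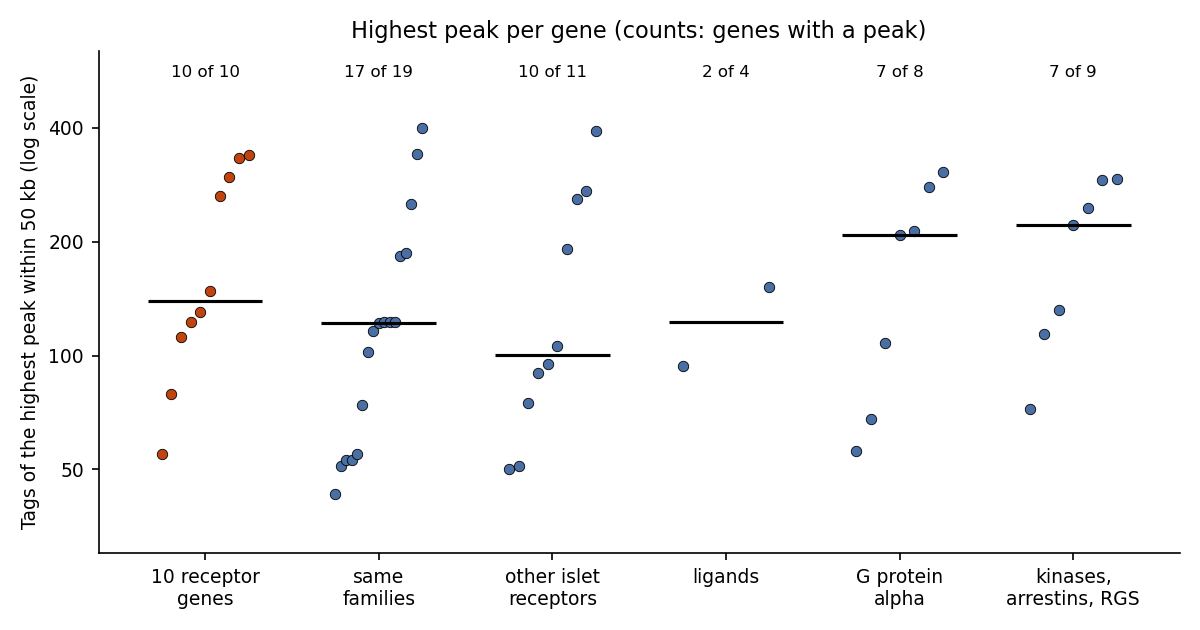
Tags of the highest peak within 50 kb of each gene (y axis, log scale), 1 point per gene, for the 10 receptor genes and the 5 groups of related genes, with a black line at the median and the number of genes with a peak above each group. Medians leave out genes without a peak. They were 139 tags for the 10 receptor genes, 122 for related receptors, 100 for other islet receptors and 123 for ligands (2 genes only). For G protein alpha subunits the median was 208, and for kinases, arrestins and RGS proteins 222.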

How the data were processed

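HA-Rfx6 and control Min6b1 chromatin was precipitated with anti-HA and sequenced (tags of 50 bases, 1 library each). By the submitters' processing notes, the authors used CASAVA 1.8.2, Bowtie, MACS 1.4.2 and mm9. Per the file headers, 33949757 of 49443917 tags (68.7%) remained in the HA-Rfx6 library after MACS kept at most 1 per position, and 3567375 of 16911298 (21.1%) in the control, which is used here only as the background against which the authors called peaks (p-value cutoff 1e-05). The background thus rests on 9.52 times fewer tags, and the effect of this was not tested. The deposited tags are counts without normalization. The deposited fold enrichment is a ratio to the expected background, the deposited score is the log10 of the p-value multiplied by -10, and the deposited FDR, in percent, comes from exchanging ChIP and control.

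Summits (start + summit - 1) were placed on NCBIM37, where 0 peaks ran past a chromosome end, and compared with GENCODE M1, chromosome M left out. Distances to a start used the outermost annotated start of the gene, and nearest starts were those of protein-coding transcripts. X-boxes were searched on both strands. The strict X-box is named without its letters. The receptor genes and lists were chosen with earlier results of these data known, and no likeness between genes over samples was computed because there was 1 library. Named genes were the 10 receptors, genes with the nearest start to their peaks, and the pair with the highest peak in each group of related genes; genes in which such a peak lies (such as Slc39a11) or to which it is nearest, and genes without a peak, were named outside this rule, after their values were seen. Galr3 was not matched by symbol. Counting and search were tested on simulated data. The alternatives were other distances, stricter peak sets, other rankings and other search windows. Scripts ran in Python 3.11.15 with scipy 1.17.1 (intervals), pandas 2.3.3, matplotlib 3.10.9 (plots) and numpy 2.4.6.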

Additional observations from a re-analysis of the deposited data

How the results depend on the processing

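Shares in parentheses are those of all protein-coding genes under the same setting. All 10 receptor genes had a peak within 20 kb (55.2%) or 100 kb (76.7%) of the gene, within 50 kb of the start (62.4%), with an FDR of at most 5% (67.1%), and with any base of a peak in place of its summit (68.0%). All 10 also had one with only peaks nearest to their own start (44.2%, a share counted without the 50 kb limit). A peak was present at 9 within 10 kb of the gene (47.1%), at 9 within 10 kb of the start (35.7%) and at 9 with at least the median tags (51.0%). It was present at 8 with the 50% of peaks that score highest (51.1%) and at 8 with a fold enrichment of at least 10 (45.6%). An FDR of at most 1%, which leaves 10 peaks in the whole list, left 0 genes (0.125%) and 0 of the 52 peaks. The number of peaks, 52, became 22 within 10 kb of the gene, 34 within 20 kb, 97 within 100 kb and 15 within 10 kb of the start. It became 30 with the highest-scoring 50%, 24 with a fold enrichment of at least 10, 31 with at least the median tags and 22 with peaks nearest to the receptor's own start. An FDR of at most 5% removed 6 peaks, among them the highest of Gcgr, Adra2a, Sstr3 and Sstr5, although these are among those with most tags. Of the 51 related genes, 28 in place of 43 had a peak within 10 kb of the start (35.7%), and 28 did with a fold enrichment of at least 10 (45.6%). Ranking by fold enrichment changed the highest peak of 5 genes (Gcgr, Chrm3, Sstr2, Sstr3 and Sstr5), and ranking by score that of 0. Chosen after seeing the data, a fold enrichment of at least 10 left 5 of the 10 genes, in place of 6, with a peak within 1 kb of the start (8.65%). A distance of 5 kb in place of 1 kb gave 7 of the 10 (28.8%). An intact arm was present in 30.8% of the 52 peaks at 100 bp around the summit and in 51.9% at 400 bp, beside 25.7% and 45.9% of all peaks. The strict X-box was present in 7.69% and 11.5%, beside 5.07% and 7.16% of all peaks. No paired analysis was possible because each condition had a single library, and for the same reason no replicate could be left out.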
